A study of Mus musculus with 12 samples.

Results

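Bone marrow-derived macrophages that lacked the clock gene Bmal1 were compared with wild-type macrophages after priming with interferon-γ (Ifn-γ) and before any exposure to lipopolysaccharide (LPS). The wild-type group (WT) came from Bmal1 fl/fl mice and the knockout group (M-BKO) from Bmal1 fl/fl mice crossed to Lyz2-Cre, all labelled C57/BL6, which the methods give as C57BL/6J. The loxP sites flank a single exon in both groups, and Cre is inserted at Lyz2, the lysozyme gene of myeloid cells, in M-BKO alone. Bone marrow was cultured for 7 days with 30% L929-conditioned medium, a source of macrophage growth factor, and all 6 cultures were then primed overnight with Ifn-γ (10 ng/mL). The study used mice of 8 to 24 weeks across its experiments, and none of the sources used here states how many mice the cultures came from, so p-values measure the spread between these libraries, which may be technical. There were 3 RNA-seq libraries per genotype, 6 of the 12 in the series, and the other 6 were primed in the same way and then given LPS (10 ng/mL) for 8 hr. Genes entered the comparison when they reached 1 TPM (transcript abundance scaled for transcript length and library total) in at least 3 of the 6 libraries, which 10494 of the 23440 listed genes did.

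Bmal1, listed here by its gene symbol Arntl, encodes a transcription factor that pairs with Clock and binds E-box sequences. The pair drives the Per, Cry and Nr1d genes, whose products act back on it. The Per and Cry proteins block the activator pair, and the Rev-erb receptors encoded by Nr1d1 and Nr1d2 repress Arntl and several other genes, Cry1 among them. Macrophages carry this clock, and Ifn-γ priming turns on guanylate-binding proteins, antigen presentation and antiviral genes.

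The targeted gene was lower in every M-BKO library. Arntl (mm10, chr7:113207465-113314126) stood at 7.71, 7.25 and 7.54 TPM in WT, against 2.31, 1.97 and 2.46 TPM in M-BKO. The groups did not overlap, and the log2 fold change on the TPM + 1 scale was -1.39 (SE 0.0818, limma adjusted p = 1.61e-07). Reads from exons outside the floxed one still count toward this value.

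The driver locus moved by far more. Lyz2 gave 31785, 32592 and 34645 TPM in WT, against 47.0, 61.1 and 56.5 TPM in M-BKO, a log2 fold change of -9.21. Its transcripts therefore made up 3.18%, 3.26% and 3.47% of the 3 WT libraries and almost none of the M-BKO libraries. Without Lyz2, the TPM of all other genes summed to 966993 ± 1475 (SD, n = 3) in WT and 999945 ± 7.20 (SD, n = 3) in M-BKO, 3.41% more. Every library has the same TPM total, so this difference restates that of Lyz2 and is no separate result. Loss of Bmal1, loss of lysozyme, the presence of Cre and any other DNA carried along with the Cre insertion fall on the same libraries and cannot be told apart. Lyz1, a near-identical neighbour of Lyz2 whose reads can be assigned to either copy, read 428, 442 and 552 TPM in WT, against 143, 142 and 143 TPM in M-BKO. Of the 19 other tested genes within 2 Mb of Lyz2, Lyz1 was the 1 called gene, and Mdm2, the ubiquitin ligase of p53, was a second under median-ratio scaling only (log2 fold change -0.17, limma adjusted p = 0.0223).

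At a Benjamini-Hochberg adjusted p under 0.05 in limma and with no fold threshold, 504 genes were higher in M-BKO (4.8% of those tested) and 123 were lower (1.17%). The share of the calls that were higher depended on the scaling. After the TPM were rescaled without Lyz2, 199 genes were higher (1.9%) and 152 lower (1.45%). With median-ratio scaling, 152 were higher (1.45%) and 193 lower (1.84%). Rises therefore made up 80.4%, 56.7% and 44.1% of the calls under the 3 scalings, while the median over every tested gene moved from 0.07 to 0.02 and 0.00 on the log2 scale. No gene was called in opposite directions, and 273 genes, 152 higher and 121 lower, were called under all 3. The differences were mostly small, with a median log2 fold change of 0.28 among the rises and -0.29 among the falls. Beyond 1.5-fold on the fitted scale there were 35 rises and 13 falls, of which 7 and 2 passed the expression filter through the higher genotype alone. The libraries of the 2 genotypes did not overlap for 2792 of the tested genes (26.6%). The same held for 502 of the rises and 121 of the falls, so a lack of overlap adds little to a call.

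**Figure D1:**
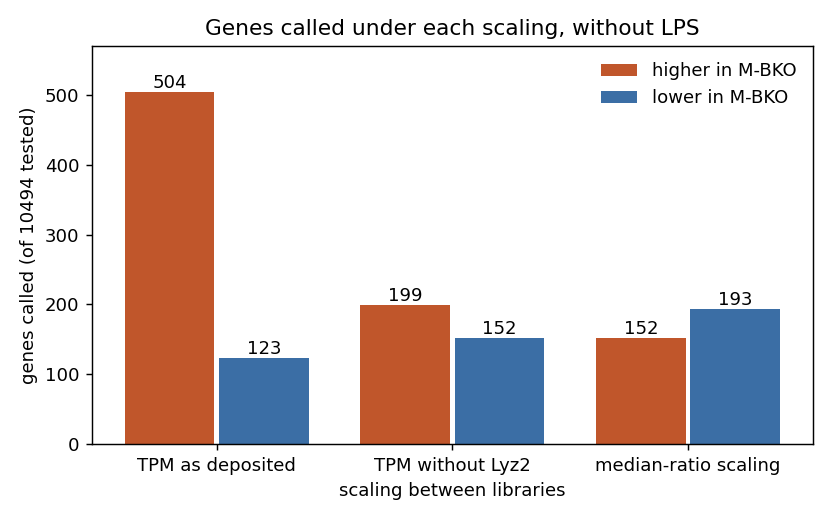
Number of genes called higher (left bar of each pair) or lower (right bar) in M-BKO than in WT macrophages without LPS, of 10494 tested, under 3 scalings between libraries given on the horizontal axis. The rises go from 504 to 199 and 152, and the falls from 123 to 152 and 193.

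The libraries listed 13315 to 13421 genes above 0. WT replicate 3 deviated most from its group (SD of its residuals 0.142, against 0.0751 to 0.103 in the other 5 libraries), and without it 752 genes were higher and 147 lower. Without any single M-BKO library, 216 to 218 genes were higher and 72 to 77 lower, and without WT replicate 2, 283 were higher.

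All 6 libraries carried macrophage markers at high levels. Adgre1, the gene of the F4/80 antigen listed as Emr1, read 1025, 1047 and 1128 TPM in WT, against 1087, 1106 and 1109 TPM in M-BKO. Of the 19 macrophage genes tested, 7 were higher, Csf1r and Cd68 among them, and Lyz2 was lower (6 and 1 without Lyz2 in the scaling, 4 and 2 with median-ratio scaling). Markers of other cells were low or rested on a few genes. The lymphocyte markers summed to 7.70 to 8.78 TPM in WT, against 8.73 to 10.7 TPM in M-BKO, with the T cell gene Cd3e and the NK cell gene Ncr1 listed at 0 in all 6 libraries, and the fibroblast markers summed to 3.48 to 4.13 and 5.29 to 5.59 TPM. Granulocyte genes summed to 381 to 415 TPM in WT, against 466 to 522 TPM in M-BKO, where S100a9 and Chi3l3 were higher (neither of them with median-ratio scaling) and the progenitor genes Elane and Mpo stayed under 1 TPM. The sum for dendritic cell genes was 97.0 to 104 TPM in WT, against 79.9 to 87.6 TPM in M-BKO, with Xcr1 and Clec9a lower and the defining genes Flt3 and Zbtb46 under 1 TPM. Clec9a (limma adjusted p = 0.0494) lost its call when any 1 of the 6 libraries was left out. Erythroid and megakaryocyte genes summed to 243 to 258 TPM in WT and 316 to 328 TPM in M-BKO, almost all of it Pf4, with the globin genes Hbb-b1 and Hba-a2 listed at 0 throughout. The mast cell sum was 2.67 to 3.24 TPM in WT, against 2.36 to 3.45 TPM in M-BKO. The part of such cells in the results was not tested, and in bulk RNA fewer cells of a type and less RNA per cell cannot be told apart.

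Of the clock repressors, 8 were tested, and 5 were higher and 1 lower in M-BKO (4 higher and 1 lower under either other scaling). Their median log2 fold change was 0.40, against 0.07 for all tested genes. The promoters of 6 of the 8, taken from RefSeq (GRCm38.p6) as 250 bases before to 50 after the start, were searched on both strands for the E-box CACGTG. It occurred in 4 of them, Cry1, Bhlhe41, Gm129 and Per1, against 8.09% of 27025 promoters of all genes and 12.3% of those of tested genes. They are printed because these are the letters bound by the missing factor, and a match is a description of the sequence, not a bound site. Each is written along the strand of its gene with the E-box in capitals, at chr10:85185089-85185134 (minus) for Cry1, chr6:145865548-145865593 (minus) for Bhlhe41, chr3:95882247-95882364 (minus) for Gm129 and chr11:69098763-69098808 (plus) for Per1.
Cry1: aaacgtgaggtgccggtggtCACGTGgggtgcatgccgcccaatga
Bhlhe41: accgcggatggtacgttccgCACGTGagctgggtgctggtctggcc
Gm129: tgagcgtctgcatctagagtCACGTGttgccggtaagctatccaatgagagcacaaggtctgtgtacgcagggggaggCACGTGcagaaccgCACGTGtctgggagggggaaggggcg
Per1: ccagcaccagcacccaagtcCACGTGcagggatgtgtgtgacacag
Among all called genes the E-box occurred in 12.5% of the matched promoters of rises (49 of 391) and 5.38% of those of falls (5 of 93).

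The 4 genes with these sequences did not move alike. Cry1, the repressor of the activator pair, read 4.75, 4.33 and 5.28 TPM in WT, against 23.9, 25.6 and 24.4 TPM in M-BKO, the largest rise of a clock gene (log2 fold change 2.15, SE 0.0660, limma adjusted p = 6.07e-11). Bhlhe41, a repressor that competes for E-boxes, rose from 2.49, 2.32 and 2.74 TPM to 4.53, 3.75 and 4.08 TPM. For Gm129, which is Ciart in RefSeq and a repressor of the activator pair, the readings were 5.40, 4.79 and 5.61 TPM in WT, against 6.22, 6.54 and 6.75 TPM in M-BKO. With 3 E-boxes in its stretch, Gm129 passed the test as deposited (log2 fold change 0.26, limma adjusted p = 0.0391) and under neither other scaling. Per1 overlapped between the genotypes, at 8.66, 8.49 and 5.98 TPM in WT, against 8.85, 8.95 and 8.46 TPM in M-BKO (limma adjusted p = 0.308).

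Both Cry genes and Per2 rose, and the tested Rev-erb gene fell. Nr1d2, which encodes Rev-erbβ, went from 9.01, 9.17 and 10.6 TPM in WT to 0.609, 0.874 and 1.18 TPM in M-BKO, the largest fall after that of Lyz2 (log2 fold change -2.50, SE 0.102, limma adjusted p = 2.28e-09). Its partner Nr1d1 stood at 1.57, 0.944 and 1.02 TPM in WT, against 0.223, 0.211 and 0.0760 TPM in M-BKO, under the filter. Where the filter was taken over all 12 libraries, or dropped, Nr1d1 was also called lower (log2 fold change -0.89, limma adjusted p = 5.21e-04 and 0.00156). Cry2, the paralogue of Cry1, rose from 1.91, 1.64 and 1.29 TPM to 5.04, 5.66 and 6.27 TPM (log2 fold change 1.35). In M-BKO every Cry2 value lay above every WT value, which was a condition for being named among the largest rises. Per2, which partners the Cry proteins, rose from 0.331, 0.245 and 0.426 TPM to 1.89, 2.24 and 2.16 TPM (log2 fold change 1.21, limma adjusted p = 1.81e-06), and passed the filter through M-BKO alone. Per3, a further Per gene, lay under the filter at 0.743 to 0.977 TPM in WT, against 0.496 to 0.589 TPM in M-BKO. The partner of the missing factor, Clock, read 7.54, 6.76 and 9.10 TPM in WT, against 8.83, 7.63 and 8.79 TPM in M-BKO, with overlapping groups (limma adjusted p = 0.561). Bhlhe40 also overlapped (adjusted p = 0.409 in limma), as did Rora, the activating receptor at Rev-erb sites (adjusted p = 0.624 in limma). None of the 7 tested clock kinases and ubiquitin ligases, Csnk1d and Csnk1e among them, was called. For so few genes this says little beside 4.8% higher and 1.17% lower over all tested genes.

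**Figure D2:**
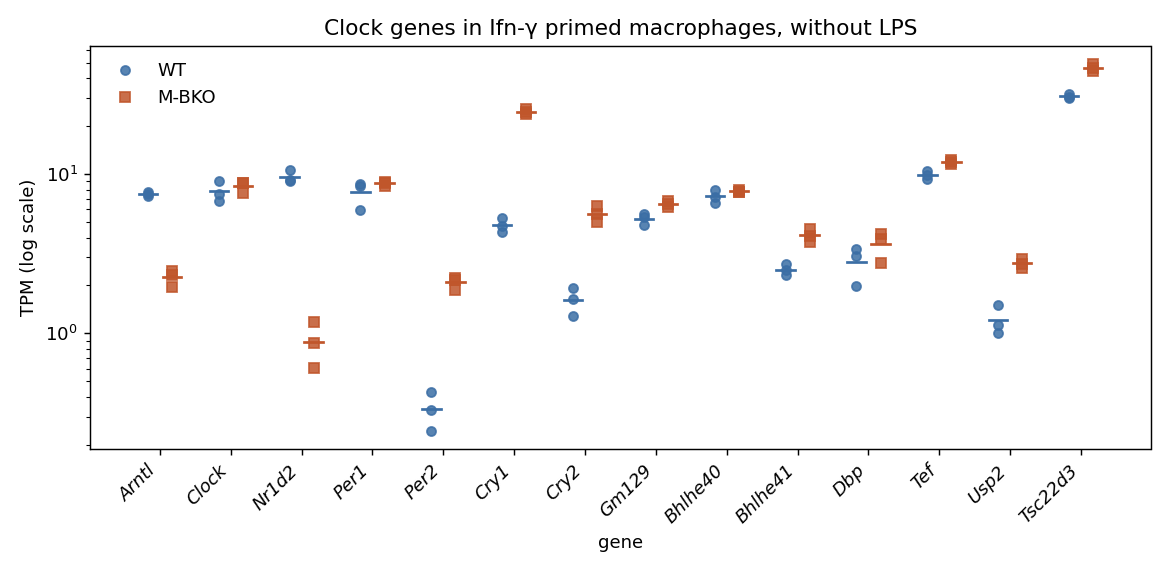
TPM on a log axis of 14 clock and clock output genes in the 3 WT (circles) and 3 M-BKO (squares) libraries without LPS, with short lines at the group means. Arntl and Nr1d2 sit lower in M-BKO, Cry1, Cry2 and Per2 higher, and Clock, Per1 and Bhlhe40 overlap.

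Of 15 tested clock output genes, 4 were higher and none lower in M-BKO as deposited, and 2 were higher under either other scaling or without any one M-BKO library. The median log2 fold change of the list was 0.16. The 2 that held were Tsc22d3 and Usp2. Tsc22d3, which encodes the glucocorticoid-induced leucine zipper, rose from 30.7, 30.2 and 31.9 TPM to 49.0, 46.6 and 44.2 TPM (log2 fold change 0.58, limma adjusted p = 2.55e-04). Usp2, a deubiquitinase with a circadian rhythm in many tissues, rose from 1.01, 1.13 and 1.51 TPM to 2.58, 2.94 and 2.74 TPM (log2 fold change 0.76). Tef, a PAR bZIP factor, and Por, the electron donor of cytochrome P450 enzymes, gave log2 fold changes of 0.25 and 0.24 that passed as deposited alone. The Tef promoter holds an E-box, in capitals here, at chr15:81802526-81802571 (plus).
Tef: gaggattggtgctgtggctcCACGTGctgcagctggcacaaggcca
Dbp, the PAR bZIP factor often used as a readout of Bmal1 activity, overlapped between genotypes at 3.07, 3.41 and 1.98 TPM in WT, against 4.18, 3.90 and 2.78 TPM in M-BKO (limma adjusted p = 0.302). Neither Nfil3, a repressor at the sites Dbp binds, nor Nampt, the enzyme of NAD salvage, nor the cell cycle genes Wee1 and Cdkn1a was called.

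The largest rises outside the clock lay in genes of several kinds, from a ubiquitin ligase to a chemokine receptor. Mid1, an X-linked microtubule-associated ubiquitin ligase, read 1.01, 0.884 and 0.832 TPM in WT, against 18.1 TPM in each of the 3 M-BKO libraries (log2 fold change 3.32, SE 0.0793, limma adjusted p = 3.36e-12). In mouse its 3' part lies in the pseudoautosomal region shared by X and Y, which varies between strains. Trpa1, an irritant-gated cation channel, was called and was listed at 0 in all 3 WT libraries and at 6.08, 5.06 and 5.09 TPM in M-BKO. Cx3cr1, the fractalkine receptor of monocytes and resident macrophages, rose from 0.538, 0.915 and 0.908 TPM to 9.01, 7.76 and 8.06 TPM (log2 fold change 2.38, limma adjusted p = 6.30e-09). Trpa1 and Cx3cr1 were below 1 TPM in every WT library and passed the filter through M-BKO alone. Mid1 reached 1 TPM in WT replicate 1 only and likewise needed the M-BKO libraries to pass. For Mid1, Trpa1 and Cx3cr1 the lack of overlap is therefore no separate support, and the fitted fold depends on the 1 TPM added to each value. Eya1, a transcriptional coactivator with phosphatase activity, stood at 2.52, 3.03 and 2.16 TPM in WT, against 11.97, 11.8 and 11.5 TPM in M-BKO. Eya1 and Trpa1 are close neighbours on chromosome 1, at 14168958-14310199 and 14872648-14918862. Pop4, a subunit of ribonuclease P, rose from 27.5, 27.4 and 29.2 TPM to 62.4, 59.2 and 62.1 TPM (log2 fold change 1.10). Further rises were those of Ctsk, a collagen-cleaving cathepsin (log2 fold change 0.92), Zfp429, a zinc finger gene of a large family of similar copies (0.83), Itgb5, an integrin subunit for vitronectin (0.81), and Ltb4r1, the high-affinity leukotriene B4 receptor (0.80). All 12 of the largest rises were called under all 3 scalings.

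The largest falls after the lysozyme, clock and interferon genes were shallower. H2-T9, a class I gene with near-identical relatives among which reads may be divided, read 29.8, 30.3 and 20.8 TPM in WT, against 16.7, 18.4 and 12.8 TPM in M-BKO (log2 fold change -0.72). Armcx6, an X-linked armadillo-repeat gene, fell from 31.1, 28.4 and 31.2 TPM to 17.9, 18.9 and 19.4 TPM (log2 fold change -0.66, limma adjusted p = 2.04e-06). In each case no M-BKO library reached the lowest WT library, which was a condition for being named among the largest falls. Bcl2l14, a relative of Bcl2, fell by 0.64 on the log2 scale, Procr, the endothelial protein C receptor, by 0.50, H2afv, a histone H2A variant, by 0.49 and Ccnd2, cyclin D2, by 0.49. All 12 of the largest falls were likewise called under the 3 scalings.

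Antiviral interferon-stimulated genes were lower in M-BKO. Of 29 tested, 17 were lower and none higher (20 lower after rescaling without Lyz2 and 24 with median-ratio scaling), each of the 29 lay below 0 in every scaling, and the median log2 fold change was -0.22 against 0.07 for all tested genes. With only the 6 libraries without LPS in the fit, 10 of the 29 were lower. Their TPM summed to 8530 to 8808 in WT and 7381 to 7465 in M-BKO. The 17 called as deposited made up 13.8% of the 123 falls, which were 1.17% of all tested genes.

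Isg15, a ubiquitin-like antiviral protein, read 924, 962 and 868 TPM in WT, against 700, 709 and 702 TPM in M-BKO (log2 fold change -0.38, SE 0.0391, limma adjusted p = 5.79e-05). Oas1g, a 2',5'-oligoadenylate synthetase gene with near copies such as Oas1a, fell from 86.1, 88.7 and 80.0 TPM to 58.6, 59.3 and 55.5 TPM (log2 fold change -0.55). The M-BKO libraries lay close together and below all WT libraries for both genes. Ifi44 fell from 62.5, 60.9 and 77.7 TPM to 43.5, 43.8 and 42.2 TPM (log2 fold change -0.62), and was the largest fall of the list. Mx1, a dynamin-like GTPase that acts against influenza viruses, fell from 220, 226 and 234 TPM to 170, 181 and 172 TPM (log2 fold change -0.38). Irf7, the transcription factor that amplifies type I interferon production, fell from 602, 566 and 475 TPM to 414, 421 and 403 TPM (log2 fold change -0.40, limma adjusted p = 0.00235). The RNA sensor gene Dhx58, the nucleic acid sensor gene Zbp1 and Stat2, a subunit of the factor ISGF3 that type I interferon activates, were below 0 and not called, at -0.07, -0.08 and -0.09.

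Ifn-γ targets centred near 0 as deposited. Of 34 tested, 1 was higher and 2 lower (0 and 2 without Lyz2, 0 and 3 with median-ratio scaling), 17 lay above 0, and the median log2 fold change was 0.00. Over all tested genes 4.8% were higher and 1.17% lower, and counts this small say little beside those shares. Irf1, the early transcription factor of the response, read 1027, 1067 and 1066 TPM in WT, against 1018, 1070 and 1060 TPM in M-BKO. Gbp2, a guanylate-binding protein and one of the most abundant transcripts, read 13830, 14155 and 15609 TPM in WT, against 15057, 14736 and 15107 TPM in M-BKO (limma adjusted p = 0.593). Both genes overlapped between genotypes, as did Irf8, a macrophage lineage factor (adjusted p = 0.595 in limma). The falls were Nos2, inducible nitric oxide synthase, from 46.1, 44.2 and 49.3 TPM to 33.0, 31.9 and 39.1 TPM (log2 fold change -0.42, limma adjusted p = 0.00168), and Cxcl9, a T cell attractant, from 4672, 4738 and 5339 TPM to 4081, 4094 and 4084 TPM (log2 fold change -0.26, limma adjusted p = 0.00664). Irg1, which makes itaconate, was higher as deposited alone, with a log2 fold change of 0.18. None of 7 tested MHC class II genes and none of 13 class I and peptide loading genes in the lists was called, with medians of 0.02 and 0.04. H2-T9, the class I gene named above as lower, is not in that list. H2-K1 and several other MHC genes were listed at 0 in all 6 libraries and could not be read.

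The promoters of both groups were searched for an interferon response element, GAAANNGAAA, on both strands and with overlapping copies allowed. It occurred in 13 of the 21 matched antiviral genes (61.9%) and in 13 of the 25 matched Ifn-γ targets (52.0%), against 3.99% of all promoters and 4.14% of those of tested genes. Among all called genes it was in 14.0% of the matched falls (13 of 93) and 3.58% of the matched rises (14 of 391). Stretches of called antiviral genes and of Gbp2 and Irgm1, Ifn-γ targets chosen after their values were seen that were not called, are set side by side with the element in capitals, read along the strand of each gene; in Ifit3 and Gbp2 the capitals are its reverse complement. They lie at chr4:156200855-156200916 (minus) for Isg15, chr5:120887614-120887651 (minus) for Oas1g, chr19:34583353-34583436 (plus) for Ifit3, chr3:142620584-142620633 (plus) for Gbp2 and chr11:48871421-48871470 (minus) for Irgm1.
Isg15: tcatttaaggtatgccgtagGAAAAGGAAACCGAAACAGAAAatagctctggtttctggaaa
Oas1g: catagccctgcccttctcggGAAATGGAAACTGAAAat
Ifit3: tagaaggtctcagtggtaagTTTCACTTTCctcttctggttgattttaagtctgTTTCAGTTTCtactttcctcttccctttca
Gbp2: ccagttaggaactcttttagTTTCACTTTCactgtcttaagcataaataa
Irgm1: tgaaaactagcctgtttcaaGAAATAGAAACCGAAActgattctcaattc
The element was thus present in genes that fell and in genes that were not called. Ifit3, an interferon-induced RNA-binding protein, fell from 326, 352 and 358 TPM to 273, 278 and 281 TPM (log2 fold change -0.32, limma adjusted p = 0.00253), and Irgm1, an immunity-related GTPase, read 1399, 1458 and 1594 TPM in WT, against 1439, 1409 and 1434 TPM in M-BKO (log2 fold change -0.05, limma adjusted p = 0.523).

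Cholesterol synthesis genes included rises and no falls. Of 22 tested, 11 were higher and none lower (6 and none under either other scaling), all 22 lay above 0 as deposited, and the median log2 fold change was 0.30. Their TPM summed to 526 to 545 in WT and 657 to 691 in M-BKO. The count was 7 without WT replicate 2, 16 without WT replicate 3, and 5, 6 and 6 without M-BKO replicates 1, 2 and 3. Cyp51, lanosterol demethylase, rose from 9.71, 11.3 and 11.4 TPM to 17.3, 16.7 and 15.3 TPM (log2 fold change 0.56, SE 0.0791, limma adjusted p = 9.08e-04). Fdft1, squalene synthase, rose from 8.38, 9.30 and 8.27 TPM to 12.7, 12.6 and 12.1 TPM (log2 fold change 0.48, limma adjusted p = 0.00185). Fdps, which makes farnesyl diphosphate, rose from 49.99, 59.9 and 53.98 TPM to 73.3, 76.1 and 69.5 TPM (log2 fold change 0.41). For these 3 enzymes the lowest M-BKO library lay above the highest WT library, and all 3 were called under each scaling. Srebf2, the transcription factor of the pathway, was higher as deposited alone (0.32). Hmgcs1 was listed at 0 in all 6 libraries and could not be read. A search of the 15 matched promoters for the sterol response element TCACNCCAC, on both strands, found it in 0 of them, against 1.44% of all promoters, which says only that these letters are not in these windows.

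**Figure D3:**
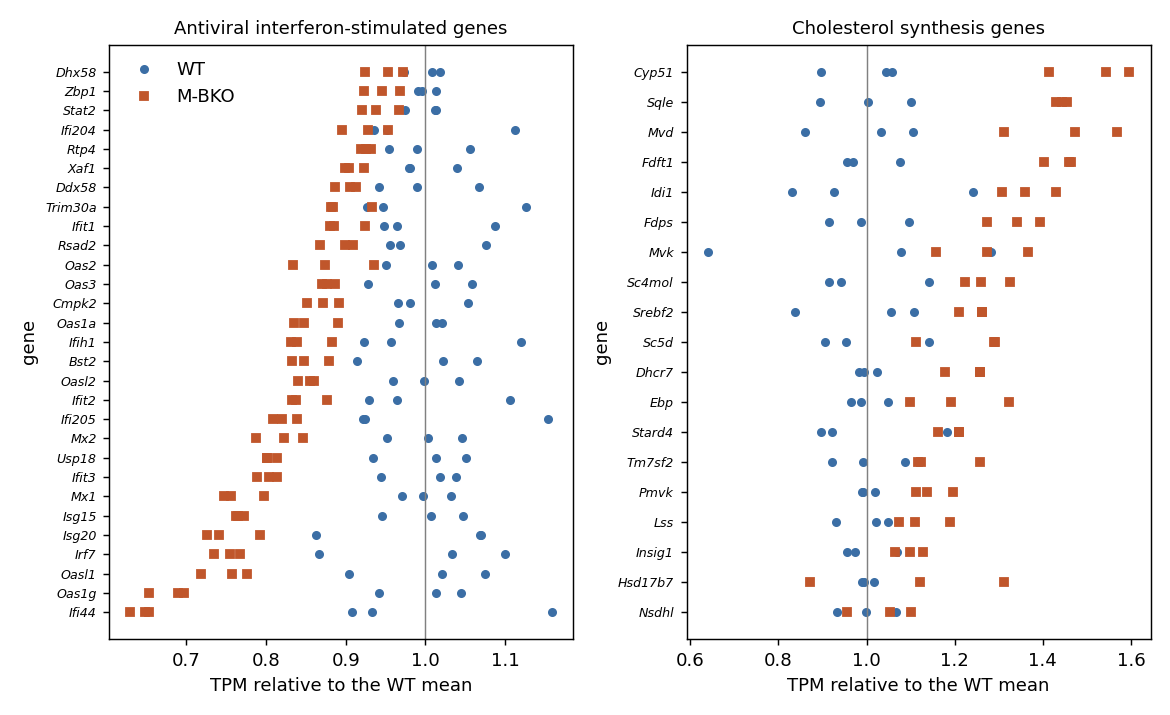
TPM of tested genes relative to the WT mean of each (grey line at 1) in the 3 WT (circles) and 3 M-BKO (squares) libraries without LPS, for 29 antiviral interferon-stimulated genes (left) and 19 cholesterol synthesis genes (right), ordered by log2 fold change. The M-BKO values lie mostly below 1 on the left and mostly above 1 on the right, farthest for Ifi44 and Cyp51.

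Lysosomal genes were higher as deposited, by small amounts that depended on the scaling. Of 35 tested, 15 were higher and none lower, against 6 and none without Lyz2 and 2 and 1 with median-ratio scaling, and the median log2 fold change was 0.13. The count of rises was 22 at most when 1 library was left out, and 9, 7 and 7 without M-BKO replicates 1, 2 and 3. Ctsd, cathepsin D, read 5472, 5600 and 5433 TPM in WT, against 6297, 6365 and 6407 TPM in M-BKO (log2 fold change 0.21, limma adjusted p = 0.00296), and was not called with median-ratio scaling. Lgmn, the asparaginyl endopeptidase legumain, rose by 0.19 on the log2 scale as deposited.

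Some surface receptors with which macrophages sense and take up particles were higher, while the medians of their lists lay near or below that of all tested genes (0.07). Cd14, the LPS co-receptor, rose from 73.9, 75.9 and 70.3 TPM to 104, 111 and 102 TPM (log2 fold change 0.52, SE 0.0397, limma adjusted p = 2.27e-06). Tlr2, the receptor for bacterial lipopeptides, rose from 59.8, 58.5 and 63.3 TPM to 86.7, 84.1 and 84.1 TPM (log2 fold change 0.48). Both were called under all 3 scalings, among 30 tested pattern receptors and adaptors with a median of 0.07. Of these, 3 were higher and none lower (2 higher under either other scaling), beside 4.8% higher and 1.17% lower over all tested genes. Of 17 tested Fc, scavenger and uptake receptors, 4 were higher and 2 lower, with a median of 0.03. Trem2, a lipid-sensing receptor, rose from 735, 695 and 587 TPM to 885, 901 and 884 TPM (log2 fold change 0.41), and Msr1, scavenger receptor A, rose by 0.42 on the log2 scale. The falls were Cd5l, a secreted scavenger protein made by macrophages (-0.46), and Axl, a receptor for apoptotic cells (-0.20). Outside these lists, Tgm2, transglutaminase 2, rose from 451, 465 and 429 TPM to 631, 638 and 617 TPM (log2 fold change 0.49, limma adjusted p = 1.05e-05).

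Among metabolic genes, a minority of amino-acid transporters rose, beside 4.8% higher and 1.17% lower over all tested genes. Of 19 tested transporters, 6 were higher and none lower (3 without Lyz2, 2 with median-ratio scaling, 3 without M-BKO replicate 2). All 19 lay above 0 as deposited and 4 lay below it under either other scaling, with a median log2 fold change of 0.14. Slc7a8, a carrier of large neutral amino acids, rose from 170, 177 and 163 TPM to 229, 241 and 236 TPM (log2 fold change 0.47, SE 0.0402, limma adjusted p = 8.28e-06). Slc38a7, a lysosomal glutamine carrier, rose from 32.2, 31.5 and 32.0 TPM to 42.2, 41.3 and 37.3 TPM (log2 fold change 0.32), and both held under the 3 scalings. Of 27 tested TCA cycle genes, 3 were higher, the isocitrate dehydrogenases Idh1 (0.30), Idh2 (0.29) and Idh3g (0.18), with Idh1 alone called under the other scalings. None of 44 tested nuclear respiratory chain subunits and none of 16 regulators of mitochondrial biogenesis was called as deposited, with medians of 0.01 and 0.04. Counts this small say little beside the shares over all tested genes.

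Of 24 tested glycolytic genes, 1 was higher and 2 were lower, beside 4.8% higher and 1.17% lower over all tested genes. Hk2, hexokinase 2, was higher as deposited alone (0.21), and Pfkp and Tpi1, which encode phosphofructokinase P and triosephosphate isomerase, were lower (-0.21 and -0.14). None of 22 tested Hif-1 pathway genes was called. Hif1a read 113, 115 and 130 TPM in WT, against 121, 115 and 114 TPM in M-BKO, and Ldha, lactate dehydrogenase A, read 1346, 1386 and 1389 TPM in WT, against 1299, 1306 and 1343 TPM in M-BKO. Adjusted p in limma was 0.823 for Hif1a and 0.283 for Ldha.

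Genes of the antioxidant and protein folding responses included small rises, beside 4.8% higher and 1.17% lower over all tested genes. Of 23 tested Nrf2 and glutathione genes, 8 were higher and 1 lower, against 4 and 1 without Lyz2 and 2 and 1 with median-ratio scaling, with a median of 0.15. The count of rises was 5 without WT replicate 2 and 5, 4 and 3 without M-BKO replicates 1, 2 and 3. Gclm, the modifier subunit of the enzyme that limits glutathione synthesis, rose from 25.1, 26.0 and 25.7 TPM to 32.9, 32.0 and 33.6 TPM (log2 fold change 0.35). Nfe2l2, the gene of Nrf2 itself, rose from 178, 190 and 194 TPM to 225, 232 and 223 TPM (log2 fold change 0.28). Both held under the 3 scalings, while Txn1, thioredoxin, was lower (-0.12). Of 31 tested genes of the integrated stress and unfolded protein responses, 8 were higher and 1 lower (5 and 1, and 4 and 1, under the other scalings), with a median of 0.15. Without WT replicate 3 the rises numbered 13, and without M-BKO replicate 1 they numbered 5. Herpud1, which acts in the disposal of proteins from the endoplasmic reticulum, rose from 65.0, 67.1 and 71.0 TPM to 83.3, 82.1 and 81.9 TPM (log2 fold change 0.28), and the serine synthesis enzyme Psat1, a target of Atf4, fell from 230, 214 and 244 TPM to 182, 181 and 184 TPM (log2 fold change -0.33). Among 60 cytosolic ribosomal, 50 mitochondrial ribosomal and 31 proteasome genes, 1 was called, Rpl3, as deposited alone.

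**Figure D4:**
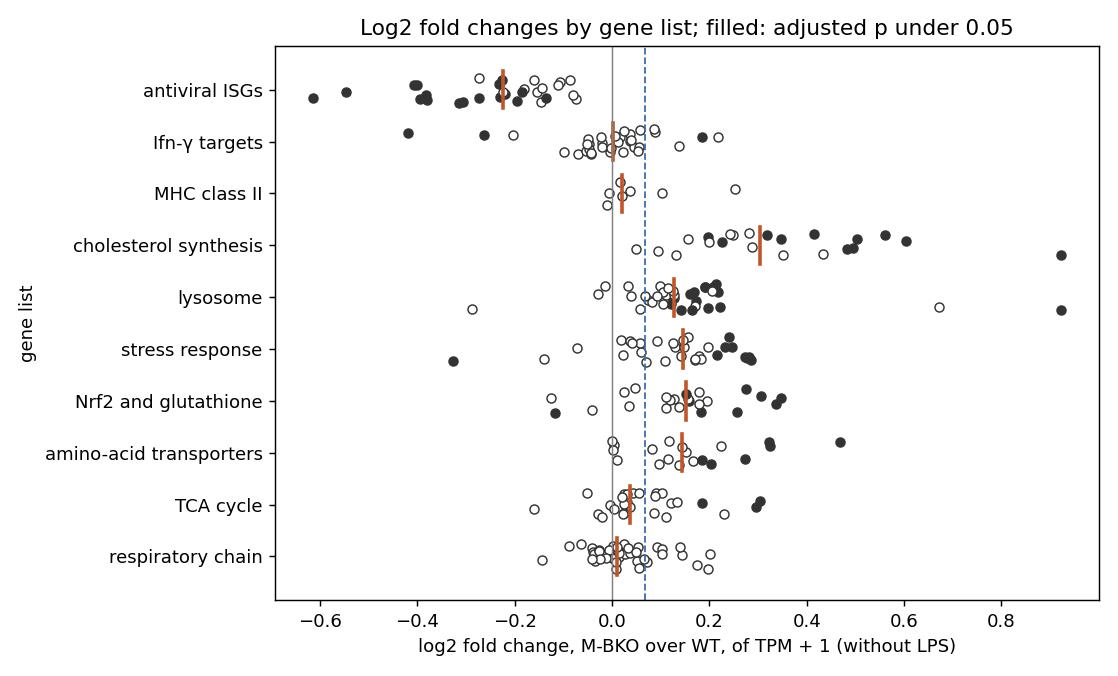
Log2 fold change (M-BKO over WT, TPM + 1, without LPS) of every tested gene in 10 gene lists named on the vertical axis, with called genes filled, a short line at each list's median and the dashed line at the overall median of 0.07. The antiviral list lies left of 0 with a median of -0.22, cholesterol synthesis lies right with 0.30, and the Ifn-γ targets and respiratory chain genes centre near 0.

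The 6 libraries given LPS for 8 hr, which share no library with the groups compared above but enter the same estimate of the spread, compared the genotypes in another state. Lyz2 took 1.48% to 1.51% of the WT libraries there. As deposited, 607 genes were higher in M-BKO (5.78% of those tested) and 242 lower (2.31%). Of the 504 rises without LPS, 157 were also higher after LPS, 31.2% of the first list and 25.9% of the second. Of the 123 falls, 46 were also lower, 37.4% of the first list and 19.0% of the second. A genotype by LPS interaction, which tests whether the difference itself changed, was called for 142 genes (1.35%), of which 67 were among the 627 called without LPS. Of the 273 genes called under all 3 scalings, 115 were called in the same direction after LPS, and 46 had a called interaction, with the difference smaller after LPS for 42 of them. These genes were chosen by their difference without LPS, which the interaction subtracts, so a lean toward smaller differences was partly set in advance.

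Cry1 and Nr1d2 kept their direction after LPS. Cry1 read 16.5, 16.0 and 15.6 TPM in WT, against 45.3, 43.7 and 48.6 TPM in M-BKO after LPS, a log2 fold change of 1.46, and Nr1d2 read 19.9, 17.5 and 19.7 TPM in WT, against 3.31, 3.43 and 3.16 TPM in M-BKO, a log2 fold change of -2.22. The Cry1 difference was smaller than without LPS (interaction -0.69). Mid1 and Eya1 also kept large differences, of 3.14 and 1.32. Cx3cr1 was below 1 TPM in every library after LPS, at 0.0831, 0.313 and 0.106 TPM in WT, against 0.485, 0.422 and 0.402 TPM in M-BKO. Its log2 fold change was 0.30 (limma adjusted p = 0.0988), against 2.38 without LPS (interaction -2.08). The genotypes still did not overlap, and at such values the 1 TPM added to each value makes the fitted change no measure of fold. The study reports Cx3cr1 as higher in M-BKO after M1 activation. Itgb5 went from 0.81 without LPS to -0.11 after it, at 12.3, 12.5 and 13.2 TPM in WT, against 12.03, 11.5 and 11.5 TPM in M-BKO, and Tgm2 from 0.49 to -0.05. Of the 29 antiviral genes, 6 were lower after LPS and none higher, with a median of -0.09, and 5 of the 6 were also lower without LPS. Of the 22 cholesterol genes, 5 were higher and none lower after LPS.

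**Figure D5:**
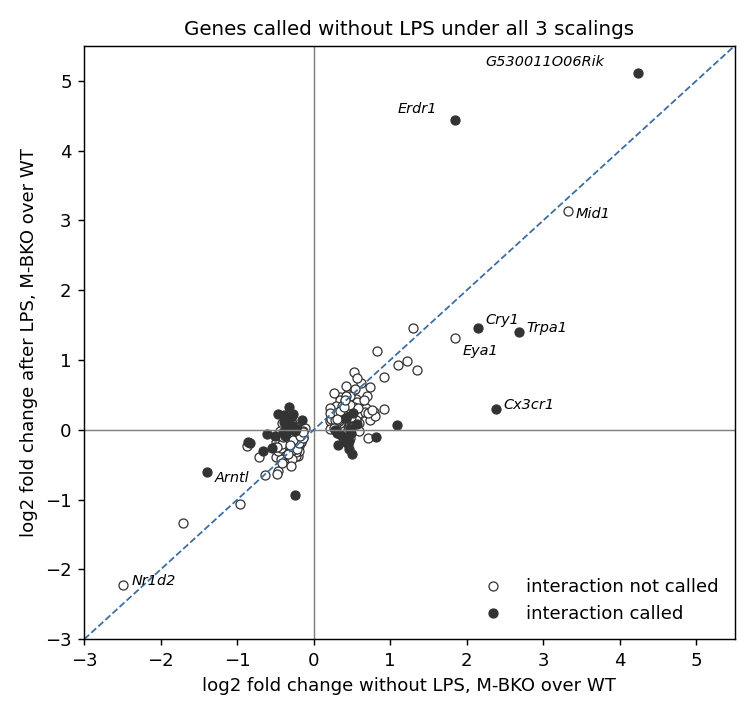
Log2 fold change, M-BKO over WT, without LPS (horizontal axis) and after 8 hr of LPS (vertical axis) for 272 genes called without LPS under all 3 scalings, Lyz2 left out because it would set the scale, with filled points for the 45 whose interaction was called and a dashed line of equal values. Mid1 and Nr1d2 lie near the dashed line, at 3.32 and 3.14 and at -2.50 and -2.22, and Cx3cr1 lies far below it, at 2.38 and 0.30. After LPS every Cx3cr1 value was below the 1 TPM added to each value.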

How the data were processed

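RNA was sequenced by the authors from poly(A)-selected, stranded libraries (TruSeq Stranded mRNA), and reads were trimmed and mapped to mm10 in CLC Genomics Workbench. The deposited table holds TPM per gene and library as the authors computed it. The sources used here do not state whether counting used strand, and TPM keep no depth, so read depth is unknown. Columns with the authors' own fold changes and p-values were not used. No library matched another.

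Genes that reached 1 TPM in 3 or more of the 6 libraries without LPS were tested on log2(TPM + 1) with limma 3.58.1 (R 4.3.3): 4 group means over 12 libraries, 8 residual degrees of freedom, moderated variances with a mean trend, and Benjamini-Hochberg adjustment over all 10494 genes at 0.05. Log2 fold changes on this scale understate those of low genes. A fold on the fitted scale is 2 to that power. The code was tested on simulated data. The genes and lists were chosen with earlier results of these data known. Named genes were the 12 largest rises and falls among called genes that reached 5 TPM in the higher genotype, with no overlap between groups and a proper gene symbol, the clock lists, Arntl and Lyz2, tested genes within 2 Mb of Lyz2, up to 3 called members per direction of 49 lists (1 had no member in the table), and genes the study names. Other genes that are named, such as further list members, cell type markers, genes in both directions across LPS and the promoter examples, were picked with their values in view. A RefSeq promoter matched 8528 of the tested genes. Alternatives comprised 19 settings from the outset and 2 chosen after seeing the data, rescaling without Lyz2 on the 6 libraries alone and rescaling without the 50 most abundant genes. A few genes are counted in their lists but not reported here by name.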

Additional observations from a re-analysis of the deposited data

Results flagged for a closer look

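For 22 of the named genes, 20 of them called without LPS, the genotype difference without LPS and the one after LPS differed by the interaction test (limma, Benjamini-Hochberg adjusted p under 0.05). The interaction is the log2 fold change after LPS minus that without LPS. Among genes that were higher in M-BKO without LPS, it was below 0 for Cx3cr1 (-2.08), Trpa1 (-1.27), Itgb5 (-0.91), Cry1 (-0.69), Tgm2 (-0.53), Ccl4 (-0.38), Lgmn (-0.34), Cd14 (-0.28) and Herpud1 (-0.28). It was above 0 for Ccne1, cyclin E1, at 1.35, whose difference grew from 0.27 to 1.61. Ccne1 read 12.3, 12.1 and 14.3 TPM in WT, against 15.2, 14.99 and 16.9 TPM in M-BKO without LPS, and after LPS 9.08, 8.51 and 9.13 TPM in WT, against 29.5, 29.4 and 29.0 TPM in M-BKO. Among genes that were lower without LPS, it was above 0 for Lyz2 (1.36), Arntl (0.79), Ifi44 (0.56), Cfb (0.50), Procr (0.42), Armcx6 (0.36), Il1rn (0.35), Psat1 (0.32), Mx1 (0.30) and Oas1g (0.29), so these differences were smaller or of the other sign after LPS. Of the 2 not called without LPS, Slc7a2, a carrier of cationic amino acids, went from 0.00 to 0.40 (interaction 0.39), and Irf8 from -0.05 to -0.36 (interaction -0.31). Trpa1 was listed at 0 in every WT library in both states, so its fold changes depend on the 1 TPM added to each value and are no measure of size. The same limit holds for Cx3cr1, which was below 1 TPM in every WT library and, after LPS, in every M-BKO library. The 20 called genes were called on their difference without LPS, so smaller differences among them after LPS were partly favoured by that choice.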

How the results depend on the processing

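Against 504 rises and 123 falls, the counts of rises were 199 without Lyz2, 152 with median-ratio scaling, 223 with quantile normalization, 223 with only the 6 libraries without LPS, 94 with both of the Lyz2 and 6-library choices, 196 without the 50 most abundant genes and 35 beyond 1.5-fold. Falls moved by over 1.5 times with median-ratio scaling (193), quantile normalization (221), only the 6 libraries (60), both choices together (72) and beyond 1.5-fold (13). Leaving out 1 library gave 216 to 752 rises and 72 to 147 falls, with 283 rises without WT replicate 2 and 752 without WT replicate 3. A pseudocount of 0.1 gave 393 and 104, a pseudocount of 5 gave 650 and 138, no filter 439 and 112, a 5 TPM filter 469 and 112, no variance trend 426 and 95, and robust moderation 497 and 121. The causes were not tested beyond what each setting removes. Among the named genes, no call turned direction. Of 107 named genes called, 49 kept their call in every setting that gave them a value, 20 settings for 46 of them and 19 for the others. Interactions among the called genes numbered 67, and 58 to 62 under the alternatives that were run. The labels number replicates 1 to 3 in each group, but deviations from the group means gave correlations from -0.256 to 0.278 between libraries of the same number, and each library's best match carried its own number in 5 of 12 cases, so the numbers were not taken as pairs. With a replicate block, 451 genes were higher and 119 lower.

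TPM give no counting error, so low genes such as Per2, Nr1d1 and Usp2 rest on an unknown number of reads. With 3 libraries a group and an unknown number of mice, differences among mice cannot be judged.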

Other observations

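Secreted and matrix-facing genes moved in both directions. Of 16 tested complement genes, 5 were higher in M-BKO and 4 lower (2 to 5 each when 1 library was left out, fewest rises without M-BKO replicate 2 and fewest falls without M-BKO replicate 3), with a median log2 fold change of -0.04. The rises were receptors and regulators, among them Itgam, a subunit of complement receptor 3 (0.24), C3ar1, the receptor for C3a (0.35), and Cfp, properdin (0.31). The falls were Cfb, factor B of the alternative pathway, from 309, 334 and 322 TPM to 234, 256 and 245 TPM (log2 fold change -0.39), C3 (-0.27), C2 (-0.47) and the integrin subunit Itgax (-0.25). C2 read 1.77, 1.41 and 1.18 TPM in WT, against 0.848, 0.872 and 0.600 TPM in M-BKO, and passed the filter through WT alone. Of 17 tested chemokines, 3 were higher and 3 lower as deposited, against 1 higher and 6 lower with median-ratio scaling. Pf4, platelet factor 4, rose from 252, 244 and 238 TPM to 322, 309 and 315 TPM (log2 fold change 0.36), while Ccl5 fell from 884, 822 and 741 TPM to 661, 646 and 693 TPM (log2 fold change -0.29). Of 11 tested chemoattractant receptors, 5 were higher and 1 lower, with Ccr1, a receptor for several CC chemokines, at 18.9, 19.2 and 22.5 TPM in WT, against 27.4, 28.2 and 26.5 TPM in M-BKO (log2 fold change 0.42). The study names 8 of the tested ubiquitin enzymes as higher in M-BKO after M1 activation, a state other than the one compared here. Without LPS 1 of the 8 was called, the ligase Rnf128, at 6.39, 6.23 and 7.50 TPM in WT, against 10.1, 8.79 and 8.94 TPM in M-BKO. After LPS 4 of the 8 were higher.

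Lipid-handling and matrix genes gave further calls. Of 20 tested PPAR and LXR targets, 5 were higher and 1 lower (3 and 2 without Lyz2, 1 and 2 with median-ratio scaling, and 2 rises without M-BKO replicate 3). Fabp4, a fatty acid-binding protein of macrophages and fat cells, rose from 4.01, 4.61 and 3.02 TPM to 7.14, 6.62 and 7.43 TPM (log2 fold change 0.74), and Abcg1, a sterol exporter, fell from 118, 112 and 104 TPM to 94.9, 91.5 and 92.4 TPM (log2 fold change -0.26). Of 24 tested integrins and matrix proteases, 7 were higher and 1 lower, and 4 were higher without any one M-BKO library. Itgb7, a partner of the α4 integrin, rose from 54.9, 52.5 and 48.2 TPM to 65.4, 66.6 and 71.3 TPM (log2 fold change 0.38). Of 16 tested alternative activation genes, 4 were higher and 1 lower as deposited, 2 and 2 without Lyz2, and 2 and 3 with median-ratio scaling. The folate receptor gene Folr2 was lower under each scaling (-0.25 as deposited), and Arg1, arginase 1, overlapped at 1.10 to 1.37 TPM in WT and 1.25 to 1.81 TPM in M-BKO. Of 16 tested inflammatory cytokine genes, the rise was Osm, oncostatin M (0.28), as deposited alone, and the fall was Il1rn, the interleukin-1 receptor antagonist (-0.29). Of 19 tested genes of branched-chain amino acid breakdown, Pccb and Mccc2 were higher as deposited alone.

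The rise of Mid1 had company at the same end of the sex chromosomes, in genes named after their values were seen. G530011O06Rik, at chrX:169975043-169978917 (mm10) inside the span of Mid1 (169685247-169990797) and on the opposite strand, read 0.309, 0.521 and 0.542 TPM in WT, against 27.4, 26.1 and 26.2 TPM in M-BKO. Erdr1, listed on the Y chromosome at 90785442-90816465, was listed at 0 in all 3 WT libraries and at 2.63, 2.37 and 2.81 TPM in M-BKO. Both genes passed the filter through M-BKO alone. After LPS, G530011O06Rik read 1.83, 2.02 and 2.67 TPM in WT, against 108, 106 and 109 TPM in M-BKO. The Y-linked gene Ddx3y read 17.7 to 21.0 TPM in WT and 18.7 to 20.2 TPM in M-BKO, and Kdm5d, also Y-linked, read 6.85, 8.26 and 8.23 TPM in WT, against 10.7, 10.2 and 9.88 TPM in M-BKO, called as deposited alone. Because counting by strand is not stated, reads of G530011O06Rik and Mid1 may not be separable.

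Of the genes called without LPS, 8 were called in the opposite direction after it. Glipr2, Igfbp4, Lgmn, Cmtm7 and Hmga1 were higher in M-BKO without LPS and lower after it, and Cp, Ppap2a and Ptgs2 the reverse. Without LPS, Cmtm7 and Hmga1 were called as deposited alone and Lgmn was not called with median-ratio scaling. The interaction was called for all 8. Igfbp4, a binding protein of insulin-like growth factors, read 23.9, 22.8 and 23.3 TPM in WT, against 33.6, 33.9 and 32.8 TPM in M-BKO without LPS, and 104, 88.2 and 104 TPM in WT, against 83.5, 71.0 and 77.2 TPM in M-BKO after it. Ptgs2, the inducible cyclooxygenase, read 45.3, 45.2 and 50.3 TPM in WT, against 37.1, 39.4 and 38.7 TPM in M-BKO without LPS, and 1938, 1734 and 1872 TPM in WT, against 2154, 1984 and 2204 TPM in M-BKO after it.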
